A study of Mus musculus with 16 samples.

Results

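Liver gene expression in GR knockout mice given dexamethasone was set against that of untreated wild-type mice, 4 arrays against 4 of the 16 in the series, picked by their labels. All livers came from male C57BL/6 mice labelled 3-months-old. The treated knockout carries both a genotype change and a drug, so each difference joins the loss of the receptor and the response to dexamethasone without it. For many named genes, though not all, the level in the untreated knockout (4 arrays), in dexamethasone-treated wild type (4 arrays) or in both is given beside it. The protocol calls the mutant a liver knockout, while the titles of the treated knockout begin with PBS and name no genotype. The genotype label and the source name of each sample settled its group. The labels name neither the promoter driving the deletion nor the deleted part of the gene, and give no dose, route or duration of dexamethasone. Source names call the controls untreated, whereas the protocol speaks of vehicle. The labels do not state outright that each array was a separate mouse, so p-values measure the spread between these samples.

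The glucocorticoid receptor (GR) is a nuclear receptor that adrenal steroids and their synthetic analogue dexamethasone switch on. Once bound, it enters the nucleus and attaches to response elements, raising some genes directly and lowering others, in part by blocking inflammatory transcription factors. In liver it is known for driving gluconeogenesis, amino acid breakdown and lipid handling, and it acts on basal hormone as well as on injected drug. In a liver knockout, other organs keep the receptor and so can respond to the drug.

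Agilent 1-colour arrays gave the signal of each probe. Levels are log2 signal relative to the 75th percentile of the same array, so 0 is a fairly bright gene. That percentile lay between 401 and 692 intensity units on the 8 arrays compared, and 57.3% to 67.9% of probes were well above background. Relative to it, the mean of the spike-in controls was 1.98 to 3.01 in untreated wild type and 1.89 to 2.42 in treated knockout. Whether this scaling bears on the medians of bright lists was not tested. Every group had a slide to itself, and the effect of slide cannot be told apart from that of genotype or drug. Of 9 hepatocyte markers tested, none was called, 8 stayed within 2-fold and their median difference was -0.43. Their summed signal ran from 2564 to 3726 times the 75th percentile in untreated wild type and from 2320 to 2580 in treated knockout. Alb, albumin, is 1 of the markers and was saturated on all 4 arrays of both groups, which limits its own reading and that sum. Without untreated knockout array 1, which stands apart from its group (mean r 0.963 across genes against 0.975 to 0.980), 3 of these markers were called lower.

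Most genes of the treated knockout lay near the untreated wild-type level. Of 18474 genes tested with limma, 811 (4.39%) departed from it, with 552 (2.99%) called higher and 259 (1.40%) called lower at a Benjamini-Hochberg adjusted p under 0.05. Another 12500 (67.7%) held, meaning that they were not called and that the 95% interval of the difference lay within 2-fold. The remaining 5163 were undecided. A further outcome was a return, met by 147 genes (0.796%). They were called in untreated knockout against untreated wild type, and in the opposite direction in treated against untreated knockout. In treated knockout against untreated wild type they were not called, which by itself does not show equal levels.

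The 4 arrays of the groups did not overlap in 771 of the departed genes. Such separation largely follows from the call itself, and its share among all genes was not counted. The change reached 2-fold in 317 of the higher and 100 of the lower genes. Lower genes were bright, with a median untreated wild-type level of 1.00, whereas higher genes were dim, at -3.66, against -0.68 for all genes. In 107 of the higher genes no untreated wild-type array was well above background, so these were tested only because another group had signal. Among genes with at least 3 of 4 arrays above background on both sides, 391 were higher and 239 lower. The excess of rises was absent under another background correction: with normexp correction, 219 genes were called, 104 higher and 115 lower, and 202 of them were among the 811. The count also moved with single libraries. It fell to 409, 283 and 436 without untreated wild-type arrays 1, 2 and 3, and to 313, 447 and 260 without treated knockout arrays 1, 2 and 3. It rose to 1620 without untreated knockout array 1, which enters only through the spread shared by all groups.

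**Figure D1:**
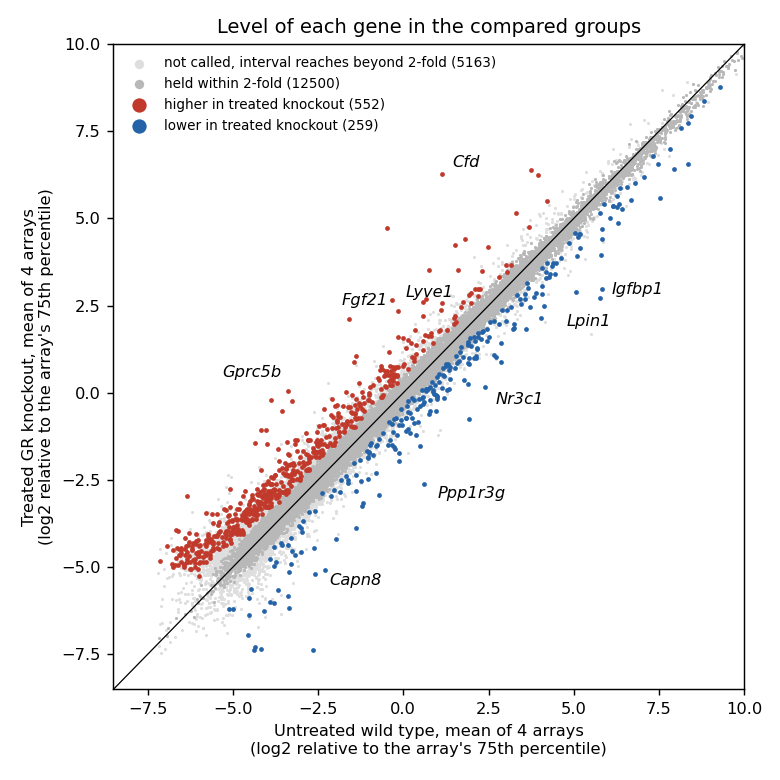
Mean level of each gene in untreated wild type (horizontal axis) and treated GR knockout (vertical axis), log2 relative to the array's 75th percentile, 4 arrays a group, with the diagonal marking equal levels. The 552 higher genes (red) lie mostly at the dim end and the 259 lower genes (blue) run up to the brightest genes, with 12500 held genes (dark grey) and 5163 undecided genes (light grey) between them.

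The targeted gene bore out the labels. Nr3c1, which encodes GR, stood at 2.48, 2.47, 2.52 and 2.13 in untreated wild type and at -0.10, 0.44, 0.00 and 0.34 in treated knockout. The groups were far apart. It was 4.69-fold lower (difference -2.23, SE 0.14, adjusted p = 3.3e-06), and its level in the untreated knockout, 0.24 to 0.56, was close to that with the drug. Signal from Nr3c1 remained above background on every knockout array. In bulk liver, fewer cells with the transcript and less transcript per cell cannot be told apart. The 3 other Nr3c1 probes gave differences of -1.83, -2.07 and -1.32.

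Of 21 tested members of a list of classic glucocorticoid-induced genes, 8 were lower in the treated knockout and none higher, beside 1.40% of all genes called lower. Another 12 were undecided, 14 of the 21 lay below 0, and the median difference was -0.77 against 0.03 for all genes. The list was drawn up with earlier results of these data known, so its contrast with all genes is a description only. The 8 were Errfi1, Angptl4, Per1, G6pc, Klf9, Pck1, Tsc22d3 and Cebpd. Tat, tyrosine aminotransferase, was the single member held within 2-fold. The count of lower members lay between 5 and 9 when any 1 array was left out, lowest without treated knockout array 3. Without untreated wild-type array 4, 6 members were lower, 2 were higher and the median was -0.46.

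Errfi1 encodes an inhibitor of EGF receptor signalling. It read 7.39, 7.61, 7.68 and 7.42 in untreated wild type against 5.43, 5.35, 5.16 and 6.40 in treated knockout. The groups did not overlap, and the difference was -1.94 (SE 0.28, adjusted p = 0.0026). The untreated knockout spanned 5.0 to 6.43, a range close to that of the treated one. Angptl4 is a secreted inhibitor of lipoprotein lipase. Its levels were 7.73, 7.85, 7.69 and 8.52 against 6.37, 6.63, 6.62 and 5.99, a difference of -1.54 (SE 0.22, adjusted p = 0.0026). All 4 treated knockout arrays lay below every wild-type array. Per1, a clock repressor with a known GR response, stood at 1.68, 2.29, 1.60 and 1.53 against -0.14, 0.58, 0.16 and 0.93 (difference -1.40, SE 0.23, adjusted p = 0.0054). Klf9, a Krüppel-like transcription factor, was lower by 2.44-fold (adjusted p = 0.011), and its 2 probes gave -1.29 and -1.37. Tsc22d3, the anti-inflammatory leucine zipper protein GILZ, was lower by 2.40-fold (adjusted p = 0.029).

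Of 14 tested gluconeogenesis genes 4 were lower, none was higher and 6 held, with a median difference of -0.66. Of all genes, 1.40% were called lower and 67.7% held, and the median was 0.03. This list too was drawn up with earlier results of these data known, so the contrast is a description only. Pck1, the cytosolic PEP carboxykinase, read 8.21, 8.35, 8.31 and 8.54 in untreated wild type and 6.37, 5.90, 6.06 and 7.92 in treated knockout. Array 4 of the treated knockout lay close to wild type, and the other 3 lay well under it. The difference was -1.79 (SE 0.35, adjusted p = 0.013), and the untreated knockout lay nearer to wild type, at 7.34 to 8.21. G6pc, the catalytic subunit of glucose-6-phosphatase, was 2.22-fold lower (7.07, 6.82, 6.55 and 6.29 against 5.03, 6.11, 5.24 and 5.74; adjusted p = 0.010), with the untreated knockout at 5.27 to 5.51. Slc37a4, the glucose-6-phosphate transporter, was lower by 0.79 on the log2 scale (adjusted p = 0.041). Crebl2, a CREB-like factor, fell by 0.65 by its brighter probe (adjusted p = 0.039), while its other probe read 0.09, so its direction is unsettled. Fbp1, Pcx, Mdh1 and Ldha held within 2-fold, with differences of 0.08, -0.29, -0.03 and 0.03. Without a single array the count of lower members ranged from 1 (without treated knockout array 3) to 5. It was 2 without any one of untreated wild-type arrays 1, 2 and 4, treated wild-type arrays 1 and 3, untreated knockout array 2, and treated knockout arrays 1 and 2.

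A larger drop was that of Igfbp1, an insulin-like growth factor binding protein that insulin lowers and glucocorticoids raise. Its levels were 4.77, 5.32, 6.66 and 6.33 in untreated wild type against 2.47, 2.19, 1.99 and 4.27 in treated knockout. The groups did not overlap, which the rule for the largest falls required. Treated knockout array 4 stood nearest to wild type, as it did for Pck1 and Errfi1. The difference was -3.04, or 8.22-fold (SE 0.62, adjusted p = 0.016), with 2.39 to 4.55 in the untreated knockout. Its probe lies on chromosome 11 at 7154447 to 7154506 of mm7, the build of the deposited annotation. Pfkfb3, which makes the activator of glycolytic phosphofructokinase, stood at 2.73, 3.62, 2.89 and 2.25 against 1.25, 0.91, 0.44 and 0.94. That was 3.97-fold lower (SE 0.26 on the log2 scale, adjusted p = 0.0013). Arg1, the last enzyme of the urea cycle, was the single member of 10 in its list to be called, 1.86-fold lower (adjusted p = 0.0070). Cebpb, a transcription factor of the acute phase and of gluconeogenesis, was 2.06-fold lower (adjusted p = 0.013). Its relative Cebpd was 2.14-fold lower (adjusted p = 0.045).

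Lipins are phosphatidate phosphatases that make diacylglycerol for triglyceride synthesis, and Lpin1 is also known as a coactivator of fatty acid oxidation genes. Lpin1 read 4.11, 5.53, 4.68 and 6.01 in untreated wild type and 2.80, 3.20, 1.94 and 3.67 in treated knockout, a 4.52-fold drop (SE 0.39 on the log2 scale, adjusted p = 0.0084). Its level in the untreated knockout, 1.39 to 2.02, was lower still, and the rise of 1.21 with dexamethasone there was not called (adjusted p = 0.11). All 4 Lpin1 probes gave differences between -2.10 and -2.18. Lpin2 read 5.47, 6.15, 5.94 and 5.79 against 4.21, 4.56, 4.24 and 4.62 (difference -1.43, SE 0.17, adjusted p = 0.00089), and its 4 probes gave -1.09 to -2.35. Treated knockout was also lower than untreated knockout (4.90 to 5.49), by 0.81 (difference -0.81, adjusted p = 0.021). Lpin1 and Lpin2 were the called members of a 21-gene list of fatty acid and triglyceride synthesis. None of the other 19 passed the test, and the list median was 0.32. Pnpla3, Elovl6 and Fasn, named for the size of their values, read 1.91, 1.26 and 1.09 above wild type. That median was 0.03 without untreated wild-type array 4.

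Of 34 genes described here as lower, 24 have a promoter in the RefSeq table. Among these, 4 hold the half-site of the GR response element: Lpin1, Lpin2, Tsc22d3 and Oasl2. The first 3 are shown with the bases on both sides of it, 5′ to 3′ on the gene's strand, from RefSeq on GRCm38.p6. Capitals mark the half-site AGAACA or its reverse complement TGTTCT. Lpin1 is chr12:16611097-16611156 on the minus strand, Lpin2 chr17:71204424-71204483 on the plus strand, and Tsc22d3 chrX:140600675-140600734 on the minus strand.
Lpin1: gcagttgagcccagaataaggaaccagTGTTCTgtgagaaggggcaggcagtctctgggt
Lpin2: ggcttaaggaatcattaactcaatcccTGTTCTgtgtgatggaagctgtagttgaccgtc
Tsc22d3: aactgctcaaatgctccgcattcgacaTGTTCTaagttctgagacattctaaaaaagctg
The half-sites begin 163, 203 and 185 bases before the RefSeq gene starts. A search of the 250 bases before gene starts, both strands, found a half-site in 27 of 177 lower genes that have a promoter in the RefSeq table (15.3%). The share was 14.9% of 350 higher genes, 13.7% of 8667 held genes and 14.3% of all 12045 tested genes matched. The full element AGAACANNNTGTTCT was found in none of the lower or higher genes and in 2 of all tested genes matched. The half-site also stood before Cela3b, Pax5, Slc22a26 and Trpv3, called higher, and before Asns, Fibin, Gapdh and Hmgcs1, not called. A match in this window is a description of the letters, not a binding site.

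**Figure D2:**
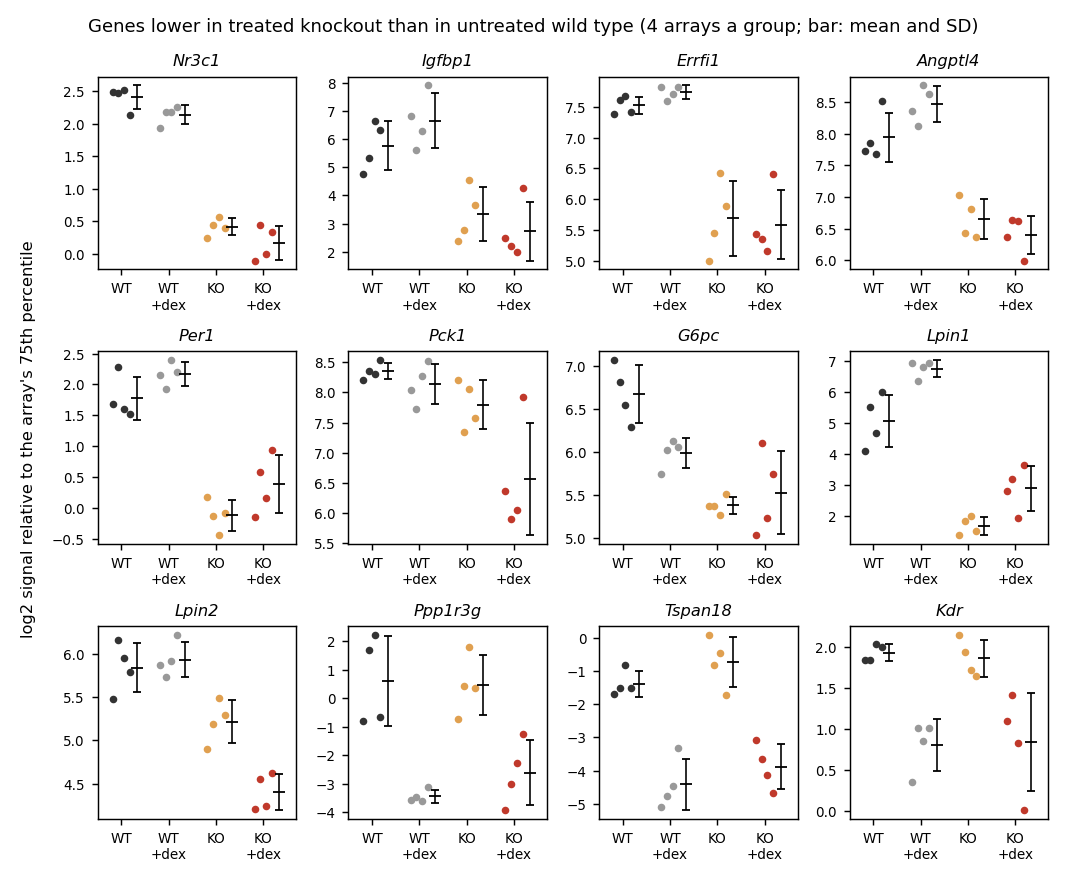
Level on each array (points; log2 relative to the array's 75th percentile) of 12 genes lower in treated knockout, in untreated wild type (WT), dexamethasone-treated wild type (WT +dex), untreated knockout (KO) and treated knockout (KO +dex), with group mean and SD (n = 4) beside the points. Nr3c1, Igfbp1, Errfi1, Angptl4, Per1, G6pc and Lpin1 are already low in untreated knockout, while Ppp1r3g, Tspan18 and Kdr are near wild type there and low on the treated knockout arrays.

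Serpine2 and Omd, outside the lists, were also lower in the knockout without drug, where 0.758% of all genes were called lower. Serpine2, a serine protease inhibitor, stood at -2.01, -2.38, -2.52 and -0.95 in untreated wild type against -4.09, -3.72, -4.73 and -4.28 (difference -2.24, SE 0.34, adjusted p = 0.0032), with -4.63 to -3.76 in untreated knockout. Omd, an extracellular matrix proteoglycan, read -0.58, -1.18, -1.19 and 0.14 against -3.28, -2.41, -3.62 and -2.41 (difference -2.23, SE 0.37, adjusted p = 0.0060). The untreated knockout spanned -3.16 to -2.13. In treated wild type both stood above the untreated level, Serpine2 by 2.00 and Omd by 1.79. That comparison, which shares the untreated wild-type arrays, called 12% of all genes, 5.20% higher and 6.79% lower. With normexp correction neither drop passed the test (-0.84 with adjusted p = 0.24 for Serpine2 and -1.30 with adjusted p = 0.054 for Omd).

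Ppp1r3g, Tspan18, Gatm and Slc26a10 were lower in treated knockout than in untreated knockout too, a comparison that called 2.40% of all genes lower and 1.19% higher. Ppp1r3g, a glycogen-targeting subunit of protein phosphatase 1, read -0.80, 1.68, 2.22 and -0.67 in untreated wild type and -3.91, -3.01, -2.28 and -1.24 in treated knockout. Wild type was spread widely. The groups did not overlap, which the rule for the largest falls required, and the difference was -3.22, or 9.31-fold (SE 0.71, adjusted p = 0.023). Untreated knockout sat at the wild-type level (-0.74 to 1.81), and treated wild type at -3.58 to -3.11. It was the single called gene of a 15-member glycogen list. Tspan18, a tetraspanin of the cell membrane, stood at -1.71, -1.53, -0.81 and -1.52 against -3.06, -3.66, -4.12 and -4.67 (difference -2.49, SE 0.44, adjusted p = 0.0077), with -1.73 to 0.09 in untreated knockout. Gatm, the first enzyme of creatine synthesis, was 3.95-fold lower (-1.15, -1.09, -0.98 and -1.48 against -2.95, -2.23, -3.05 and -4.41; adjusted p = 0.022). Slc26a10, of the anion transporter family, was 4.16-fold lower (adjusted p = 0.025). In treated wild type Tspan18 stood at -5.09 to -3.32, Gatm at -4.14 to -2.68 and Slc26a10 at -3.70 to -1.87, all under untreated wild type. With normexp correction none of the 4 falls was called: the differences were -2.23 for Ppp1r3g, -1.10 for Tspan18, -1.07 for Gatm and -1.06 for Slc26a10.

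Some markers of cells other than hepatocytes were also lower. Kdr, the VEGF receptor of endothelial cells, read 1.85, 1.84, 2.04 and 2.00 in untreated wild type and 1.09, 1.41, 0.83 and 0.01 in treated knockout (difference -1.10, SE 0.24, adjusted p = 0.024). Ngfr, a stellate cell marker, was 2.55-fold lower by its brighter probe (adjusted p = 0.0058), but its other probe read 0.78 higher, so the gene's direction is unsettled. Ngfr was the single call among 15 tested stellate cell and fibroblast markers, of which 12 held. Of the 15, 6 lay below 0, and the median was 0.04, so that list as a whole was not lower. Of 10 tested B cell markers 3 were lower: Cd79b, a signalling chain of the B cell receptor, by 2.44-fold (adjusted p = 0.031), Ms4a1, which encodes CD20 and was above background on 3 wild-type arrays and 1 treated knockout array, by 4.72-fold (adjusted p = 0.031), and Fcmr, the IgM Fc receptor, by 2.95-fold (adjusted p = 0.016). Cd79b stood at -1.38 to -1.13 on the wild-type arrays and at -3.23 to -2.02 in treated knockout, with -1.02 to 0.37 in untreated knockout. Of all genes, 1.40% were called lower and 2.99% higher. The B cell list was not uniform. Pax5, below background on all wild-type arrays, was called higher, Cd22 held within 2-fold (-0.17), and Ighm gave 0.21 by its brighter probe and 1.20 by the other, neither called. The list's median was 0.01, and its summed signal overlapped between untreated wild type (2.47 to 2.68) and treated knockout (1.92 to 3.83). Ciita, the master regulator of MHC class II genes, was 1.97-fold lower (adjusted p = 0.038). It was the single call among 12 tested dendritic cell and MHC class II markers, of which 8 held, with a median of -0.01. Their summed signal overlapped, at 14.9 to 22.5 in untreated wild type and 13.4 to 33.2 in treated knockout. Of 28 interferon-stimulated genes, Oasl2 and Ifit2 were lower (by 1.75-fold and 1.66-fold), Ifi47 was higher by 0.89 on the log2 scale, and 19 held. None of the 3 B cell calls, nor those of Ciita, Oasl2, Ifit2 and Ifi47, held with normexp correction, and no B cell marker was called lower without treated knockout array 1 or 3.

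Calls in the preceding paragraphs depended on single arrays to a varying degree. Nr3c1, Errfi1, Angptl4, Per1, Klf9, G6pc, Lpin1, Lpin2, Pfkfb3, Arg1, Serpine2, Omd, Tspan18 and Ngfr were called without any 1 of the 16 arrays. Igfbp1 lost its call without treated knockout array 1 (-2.95, adjusted p = 0.050) or 3 (-2.79, adjusted p = 0.059). Pck1 (-1.62, adjusted p = 0.052) and Cebpb (-0.99, adjusted p = 0.050) lost theirs without treated knockout array 3. Fcmr lost its call without treated knockout array 1 (-1.40) or 3 (-1.54), and Kdr without untreated wild-type array 2 (-1.13) or 3 (-1.06) or treated knockout array 3 (-1.10). Tsc22d3, Ppp1r3g, Gatm, Slc26a10, Cd79b, Ms4a1, Ciita, Oasl2, Ifit2 and Ifi47 lost theirs without any one of 4 to 8 arrays, Cebpd without any one of 13, Slc37a4 without any one of 11 and Crebl2 without any one of 10. All of these kept their sign when any 1 array was left out.

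The largest rise was that of Cfd. Cfd, complement factor D or adipsin, a protease made mainly by fat cells, stood at 0.43, 0.92, 1.87 and 1.29 in untreated wild type and at 7.77, 7.85, 6.17 and 3.29 in treated knockout. Every treated knockout array lay above every untreated wild-type array, which the rule for the largest rises required, and array 4 lay lowest by far. The difference was 5.14, or 35.3-fold (95% interval 3.25 to 7.03, SE 0.89, adjusted p = 0.0070). Untreated knockout had it at 6.84 to 7.32, and treated wild type at -0.45 to 3.15. Its probe lies on chromosome 10 at 79672573 to 79672632 (mm7). Fabp4, a fatty acid carrier of adipocytes and macrophages, read 2.31, 2.24, 2.37 and 3.02 against 4.88, 3.74, 3.81 and 4.28 (difference 1.69, SE 0.30, adjusted p = 0.0081). Fabp4 stood at 2.31 to 3.29 in untreated knockout and at 3.24 to 4.21 in treated wild type. Cidec, a lipid droplet protein, was 6.02-fold higher (1.43, 1.01, 2.43 and 2.36 against 5.95, 3.85, 4.18 and 3.61; adjusted p = 0.034), and lay at 3.16 to 5.31 in untreated knockout.

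These 3 are members of an adipocyte marker list, of which 6 were tested, beside 2.99% of all genes called higher. Of its defining members, Adipoq, which encodes adiponectin, was well above background on none of the 8 arrays compared, and Lep, leptin, on none of 16. Plin4 differed by -0.21 and Plin1 by 0.74, and neither was called. Retn, resistin, differed by 0.71 without passing the test. The summed signal of the list ran from 12.2 to 23.8 times the 75th percentile in untreated wild type, from 45.7 to 316 in treated knockout and from 139 to 195 in untreated knockout. On this linear scale Cfd, where it was high, makes up most of the sum, so the sum does not show a rise of the whole list. Cidec lost its call without untreated wild-type array 1, 2 or 3 (2.46, 2.32 and 2.80) or treated knockout array 1, 2 or 3 (2.07, 2.77 and 2.66), and with normexp correction (2.43, adjusted p = 0.069). G0s2, an inhibitor of adipose triglyceride lipase, was named after its values were seen. It read 3.91, 3.79, 3.63 and 4.53 in untreated wild type against 6.48, 6.32, 6.50 and 5.68 (difference 2.28, SE 0.41, adjusted p = 0.0083), with 4.58 to 6.29 in untreated knockout.

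Fgf21, a hormone released by liver in fasting and stress, stood at -3.23, -1.62, -0.96 and -0.60 in untreated wild type. The treated knockout arrays read 4.15, -0.03, 2.43 and 1.95. They scattered widely. All lay above untreated wild type, which the rule for the largest rises required, and the difference was 3.73, or 13.2-fold (SE 0.74, adjusted p = 0.014). Both of its probes rose, by 3.73 and 3.66. Untreated knockout, at -1.69 to 0.27, overlapped both groups. It was the single called member of a 24-gene list of fatty acid oxidation and PPAR alpha targets, of which 14 held. Ddit3, the stress factor CHOP, was 2.25-fold higher (-0.73, -0.32, -0.40 and -0.70 against 0.80, -0.07, 0.64 and 1.16; adjusted p = 0.029). It was the single called gene of 22 in an unfolded protein and integrated stress response list, and it lost its call without any one of 7 of the 8 arrays compared, treated knockout array 2 being the exception. Asns, asparagine synthetase, from the same list, read 5.05, 0.03, 4.99 and 4.44 in treated knockout, so that array 2 stood far under the others, and the mean difference of 1.35 was not called. Gadd45a, a growth arrest and DNA damage gene named after its values were seen, was 5.60-fold higher (0.51, -0.16, 0.01 and -0.97 against 2.47, 2.51, 2.43 and 1.92; adjusted p = 0.00089). It stood at 0.98 to 1.97 in untreated knockout and between -2.48 and -1.50 in treated wild type (difference -1.84, adjusted p = 0.0019).

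Lyve1, Vcam1 and Ccn2 were higher in treated than in untreated knockout as well. Lyve1, the hyaluronan receptor of sinusoidal and lymphatic endothelium, read -1.12, -0.19, 0.09 and -0.08 in untreated wild type and 2.25, 2.42, 2.56 and 3.39 in treated knockout. The gap between the groups exceeded 2 log2 units. It was 7.89-fold higher (difference 2.98, SE 0.33, adjusted p = 0.00053), with both probes up by 2.98 and 2.83. Untreated knockout lay at -0.37 to 0.55 and treated wild type at 1.65 to 2.84. Vcam1, an adhesion molecule for leukocytes, also rose (-0.08, 0.88, 0.63 and 0.87 against 1.76, 2.20, 2.86 and 3.61; difference 2.03, SE 0.33, adjusted p = 0.0051), with 0.05 to 0.59 in untreated knockout and 1.61 to 2.22 in treated wild type. Ccn2, a matricellular growth factor also called CTGF and named after its values were seen, rose by 1.90 (adjusted p = 0.019). Its levels were 1.01, 2.16, 2.20 and 1.09 against 2.68, 2.99, 3.60 and 4.80. It lost its call without untreated wild-type array 1 (1.70) or treated knockout array 3 (1.87). Of 14 sinusoidal endothelial genes tested, 10 held, Lyve1 rose and Kdr fell, and the list's summed signal was 39.8 to 56.9 in untreated wild type and 42.2 to 48.6 in treated knockout. Stab2, Pecam1 and Cdh5 held, at -0.02, 0.35 and 0.08. Stab1 held by its brighter probe (0.45), but its other probe read 1.02 (adjusted p = 0.021 over probes), so its class is unsettled.

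**Figure D3:**
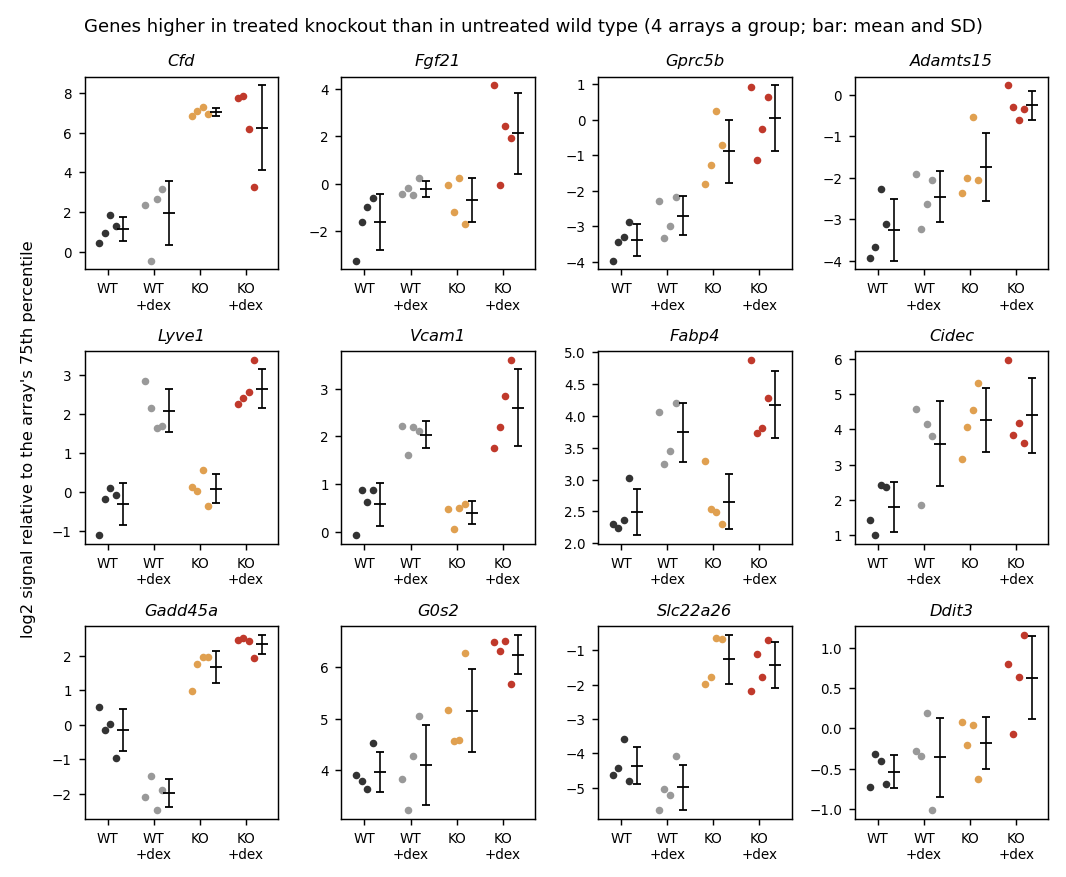
Level on each array (points; log2 relative to the array's 75th percentile) of 12 genes higher in treated knockout, in untreated wild type (WT), dexamethasone-treated wild type (WT +dex), untreated knockout (KO) and treated knockout (KO +dex), with group mean and SD (n = 4) beside the points. Cfd, Cidec, Gadd45a and Slc22a26 are already high in untreated knockout, whereas Lyve1, Vcam1 and Fabp4 are high in both treated groups.

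Gprc5b, Adamts15, Slc22a26, Fam183b, Ppp1r42 and Cyp2c55 stood above every array of both wild-type groups. Gprc5b, an orphan receptor of the membrane, read -3.96, -3.45, -3.30 and -2.87 in untreated wild type against 0.92, -1.13, -0.25 and 0.64 in treated knockout (difference 3.44, SE 0.48, adjusted p = 0.0019). Untreated knockout stood at -1.81 to 0.26, and treated wild type at -3.33 to -2.18, so both knockout groups lay above both wild-type groups. Adamts15, a secreted metalloproteinase, was 8.01-fold higher (-3.94, -3.68, -2.26 and -3.12 against 0.23, -0.29, -0.60 and -0.34; adjusted p = 0.0024), with -2.36 to -0.53 in untreated knockout. Slc22a26, an organic anion transporter higher in female than in male liver, was 7.55-fold higher (adjusted p = 0.0026), with -2.17 to -0.69 in treated knockout, -1.99 to -0.63 in untreated knockout and -4.80 to -3.57 in untreated wild type. It was the one called gene of 15 female-biased genes tested, whose median was 0.37, while none of 18 male-biased genes was called. Fam183b and Ppp1r42 were higher by 8.09-fold (adjusted p = 0.0019) and 12.8-fold (adjusted p = 0.015). Cyp2c55, a cytochrome P450 of drug and fatty acid metabolism, was 3.34-fold higher (adjusted p = 0.020). Of 23 cell cycle and DNA replication genes Mcm2 and Mcm3, parts of the replicative helicase, were higher by 2.68-fold and 2.12-fold, whereas Rrm2, a subunit of ribonucleotide reductase, was 2.67-fold lower. Igfbp3, a carrier of insulin-like growth factors, was 1.97-fold higher by its brighter probe (adjusted p = 0.012) and -0.24 by the other, so its direction is unsettled.

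Gprc5b, Adamts15, Slc22a26, Fam183b and Ppp1r42 were called without any 1 of the 16 arrays and with normexp correction, as were Cfd, Fgf21, Lyve1, Vcam1, Fabp4, Gadd45a and G0s2. Cyp2c55 lost its call without untreated wild-type array 2 (1.60) or treated knockout array 1 (1.71). Mcm2 did so without untreated wild-type array 2 (1.41) or 4 (1.34), Rrm2 without any one of 5 arrays and Mcm3 without any one of 10. Mcm3 and Rrm2 were not called with normexp correction either.

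Where no untreated wild-type array was above background, only a lower bound of the rise can be given. Such genes were tested only because another group had 3 of 4 arrays well above background. Their adjusted p-values are therefore descriptions only. The bound sets the treated knockout mean against the lowest signal well above background, or the probe's own reading if higher, on each wild-type array. Fam189a1 was at least 3.87-fold higher (-3.48 to -2.42 in treated knockout, adjusted p = 0.016), Trpv3, a temperature-gated ion channel, at least 1.96-fold (adjusted p = 0.017) and Olfr1217, an olfactory receptor gene, at least 1.43-fold (adjusted p = 0.00053). Tnf, the inflammatory cytokine, was at least 1.18-fold higher (adjusted p = 0.0095) and Prss2, a trypsinogen, at least 1.34-fold (adjusted p = 0.023). Pax5, a B cell transcription factor, was called (adjusted p = 0.00080) but supports no fold. Cela3b, a pancreatic elastase above background on 1 of 4 wild-type arrays and all treated knockout arrays, was called 3.65-fold higher (adjusted p = 0.0055). With Prss2 it made 2 calls among 9 pancreatic acinar markers, beside 2.99% of all genes called higher. The list's summed signal was 0.725 to 1.07 in untreated wild type and 1.29 to 1.49 in treated knockout. Mpo, myeloperoxidase of neutrophils, was 2.77-fold higher (adjusted p = 0.013). It was the single call among 5 tested neutrophil markers; the other 4 lay below 0 and the list's median was -0.34. None of these 8 higher genes, Mpo included, was called with normexp correction, where their differences lay between 0.44 and 1.04. Fam189a1 lost its call without treated knockout array 1, Trpv3 without treated knockout array 1 or 3, and Prss2 without untreated wild-type array 2 or 3 or treated knockout array 1 or 3.

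Of 26 oxidative phosphorylation genes none was called and 24 held, beside 67.7% of all genes. In the glucose uptake and glycolysis list 14 of 16 held, with Slc2a2, Pklr and Gapdh at -0.23, 0.10 and -0.09, and Pfkfb3 was the single call. Of 20 coagulation genes 17 held, and Plg, plasminogen, was lower by 0.53 on the log2 scale (adjusted p = 0.034), a call lost without any one of 6 arrays. Of 17 receptor chaperones and heat shock genes none was called and 13 held. Hsp90aa1, Hsp90ab1, Fkbp4 and Ptges3, whose products fold the receptor, read 0.03, -0.05, 0.17 and -0.10. Of 25 amino acid catabolism genes, Prodh, proline dehydrogenase, was called lower, by 0.92 (adjusted p = 0.040), and lost its call without any one of 12 arrays. There, 16 held and 24 lay below 0, with a median of -0.36. That median was -0.26 with quantile scaling and -0.43 with normexp correction.

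Other lists were neither called nor settled. Of 25 cholesterol synthesis and uptake genes none was called and 12 held. Their median of 0.34 became -0.01 without untreated wild-type array 4, and Hmgcs1, HMG-CoA synthase, differed by 0.86 with treated knockout array 1 (8.94, against 6.31 to 6.42 on the other 3) and by 0.21 without it. Its other probes gave 0.97, not called, and 2.02 (adjusted p = 0.036 over probes), the latter above background on 0 of 4 wild-type arrays and 4 of 4 treated knockout arrays, so Hmgcs1 is unsettled. Of 25 acute phase genes 14 held and none was called, with Saa1, Saa2 and Lbp at 0.37, 0.54 and -0.91. Of the 14, Alb, albumin, was saturated on all 4 arrays of both groups, so its value does not show that it held. C3, a complement protein, was saturated on 1 array of each group and Fgb, a fibrinogen chain, on 1 untreated wild-type array. These 3 were chosen after their values were seen. Lbp, the lipopolysaccharide-binding protein, was called lower (-1.20, adjusted p = 0.026) without treated knockout array 4. Among metallothioneins, Mt1 stood at 1.94, 3.28, 2.71 and 8.09 in untreated wild type and at 5.98, 4.45, 4.07 and 5.79 in treated knockout. Untreated wild-type array 4 lay just under the treated wild type (8.24 to 9.05), and the other 3 lay below all treated knockout arrays. The difference of 1.06 was not called with all arrays, and was 2.43 (adjusted p = 0.034) without that array, while its other probe gave -1.50 with all arrays. Lcn2, lipocalin 2, had the same outlying array (-2.57, -4.37, -4.94 and 0.62 against -1.07, -2.01, -2.31 and -0.45), and its difference of 1.35 became 2.50 (adjusted p = 0.048) without it. Ddit4, an inhibitor of mTORC1, read 3.96, 4.50, 2.88 and 5.08 against 5.67, 4.51, 4.79 and 5.64 and was not called (adjusted p = 0.24), with 1.92 to 3.49 in untreated knockout and 6.48 to 8.25 in treated wild type.

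**Figure D4:**
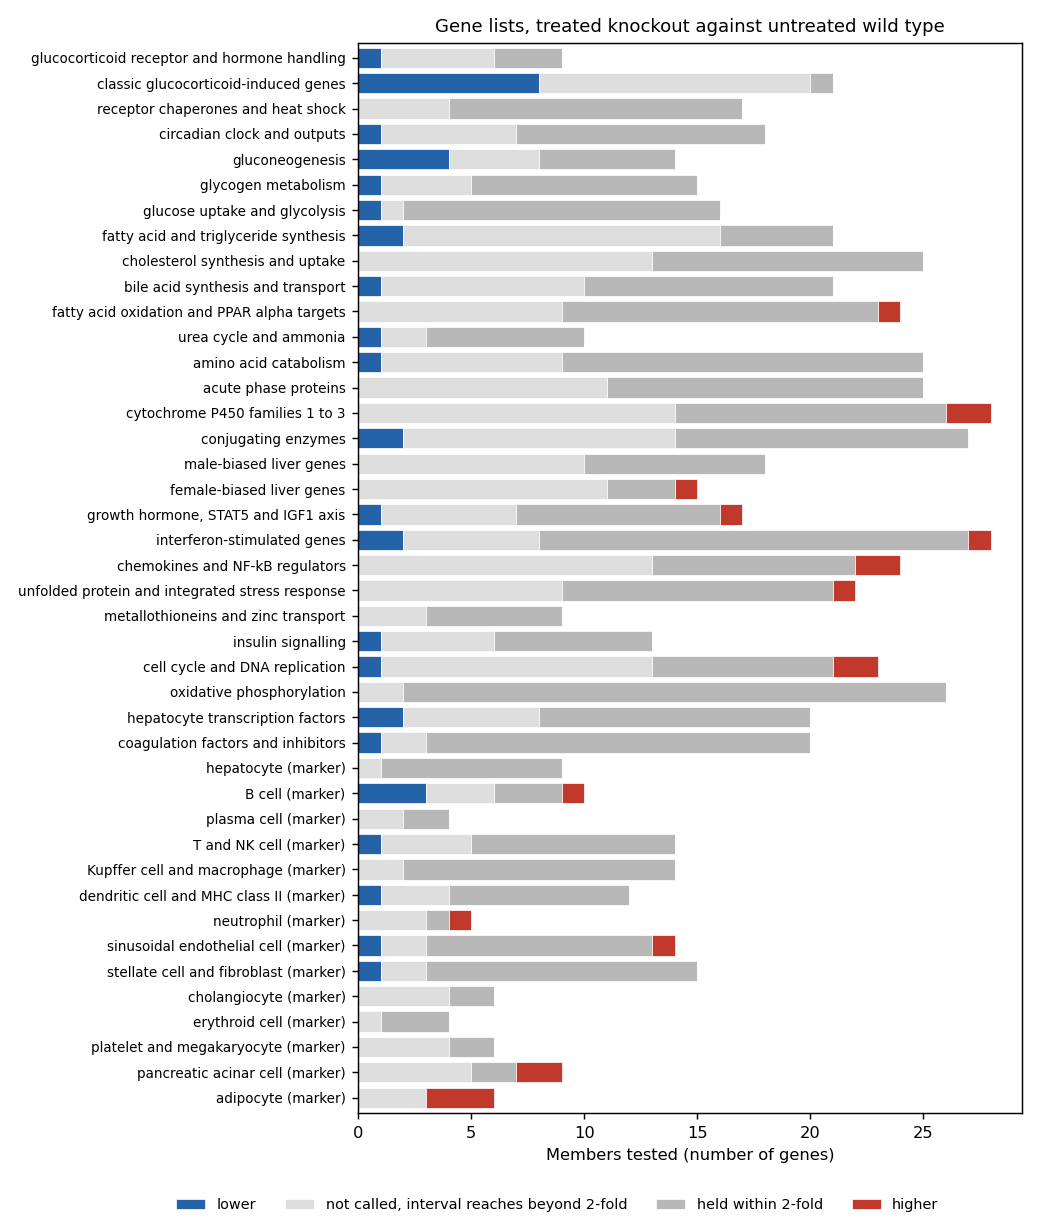
Number of tested members of 28 pathway lists and 14 cell type marker lists that were lower (blue), undecided (light grey), held within 2-fold (dark grey) or higher (red) in treated knockout against untreated wild type. Classic glucocorticoid-induced genes have 8 lower of 21 tested and 1 held, gluconeogenesis has 4 lower of 14, and oxidative phosphorylation has 24 held of 26. The lists were drawn up with earlier results of these data known.

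The 147 returned genes were mostly dim and mostly came down. In 132 the untreated knockout stood above both untreated wild type and treated knockout, and in 15 it stood below both. Their median level in untreated wild type was -3.65. The comparisons behind this class share the untreated knockout arrays, so an error in their mean moves the steps in opposite directions and can itself give a return. A dim gene can also be tested through signal in the untreated knockout alone. That the class was dim and came down is therefore a description only. Untreated knockout against untreated wild type called 2.82% of genes (2.06% higher), and treated against untreated knockout 3.59%. Without untreated knockout array 1, 116 genes returned and 74 of the 147 were among them. Without untreated wild-type array 2 or 3, 41 and 72 returned, without untreated knockout array 2 or 4, 77 and 88, and without treated knockout array 2, 97. In normexp-corrected data 7 genes returned, all of them among the 147. Of the 147, 124 also met the 2-fold criterion for held. No gene was partly returned, that is, called in both opposite steps by limma and still called against wild type on the side of the knockout. At unadjusted p under 0.05 there were 21.

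Among returned genes Foxo4, a forkhead transcription factor of the insulin pathway, stood at -1.57, -3.30, -2.22 and -3.13 in untreated wild type, at 0.60, 0.01, -0.79 and -0.84 in untreated knockout and at -1.92, -2.60, -2.07 and -3.47 in treated knockout. The untreated knockout lay above both other groups without overlap. The steps were 2.30 up (adjusted p = 0.012) and 2.26 down (difference -2.26, adjusted p = 0.010), which left 0.04 (95% interval -0.87 to 0.95). Madcam1, a mucosal adhesion molecule, rose by 1.65 in the knockout and fell by 1.92 with the drug, leaving -0.26 (95% interval -0.88 to 0.35). Rnase1, a secreted ribonuclease, rose by 1.72 and fell by 1.89, leaving -0.17 (0.14 by its other probe), and the olfactory receptor gene Olfr677 rose by 2.19 and fell by 2.19, leaving 0.01. These 4 stayed in the class without any 1 of the 16 arrays, and none did with normexp correction. Plcd4, Erich3 and Zscan4c were above background on 1 of 4 wild-type arrays and on no treated knockout array, so their return is to a level at or near background.

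Fkbp5, a co-chaperone that restrains GR and a standard readout of its activity, was the one named gene that returned from below. It read 0.11, -0.46, -1.63 and 1.70 in untreated wild type, -4.62, -2.88, -2.94 and -2.86 in untreated knockout and -1.66, -1.22, -1.24 and 0.51 in treated knockout. The knockout drop of 3.25 (difference -3.25, adjusted p = 0.013) was followed by a rise of 2.42 with dexamethasone (adjusted p = 0.043). That left -0.84 (95% interval -2.14 to 0.47), an interval too wide to call it held. Its 2 other probes gave -0.17 and -1.73. Treated wild type stood far above, at 2.97 to 3.17. The class was lost without any one of 13 of the 16 arrays, and under 5 alternatives, normexp correction among them.

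Some genes that dexamethasone moved in wild type were held in the treated knockout. Dbp, a clock output factor, read 7.20, 7.70, 6.84 and 7.33 in untreated wild type, 7.36, 7.64, 7.74 and 7.15 in treated knockout and 4.35, 5.06, 4.75 and 3.96 in treated wild type. The knockout arrays lay within the wild-type range or just above it (difference 0.20, 95% interval -0.38 to 0.79), while the treated wild type was down by 2.74 (difference -2.74, adjusted p = 0.00011). Ifit1, an interferon-induced antiviral protein, was at -1.39 to -0.69 and at -1.74 to -0.53 (difference -0.03, 95% interval -0.73 to 0.66), against -4.08 to -2.81 in treated wild type. Apol9b, an apolipoprotein L gene, differed by 0.34 (95% interval -0.27 to 0.94), against -2.05 in treated wild type. Osgin1, an oxidative stress-induced growth inhibitor, differed by -0.16 (95% interval -0.99 to 0.66), against -2.39. Stard4, a cholesterol carrier, differed by -0.32 (95% interval -0.92 to 0.27), against -2.05. Genes that rose in treated wild type and held in the treated knockout included Fibin, a secreted factor, at -1.88 to -1.20 and -1.94 to -1.35 (difference -0.04), with 0.27 to 2.28 in treated wild type. Gspt2, a translation termination factor, differed by 0.13 (95% interval -0.45 to 0.71), against 2.72. Dbp, Ifit1 and Gspt2 held under each alternative run with the 2-fold margin. Osgin1 lost the class without any one of 10 arrays, Apol9b and Fibin without any one of 4, and Stard4 without untreated wild-type array 4 or treated knockout array 2.

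**Figure D5:**
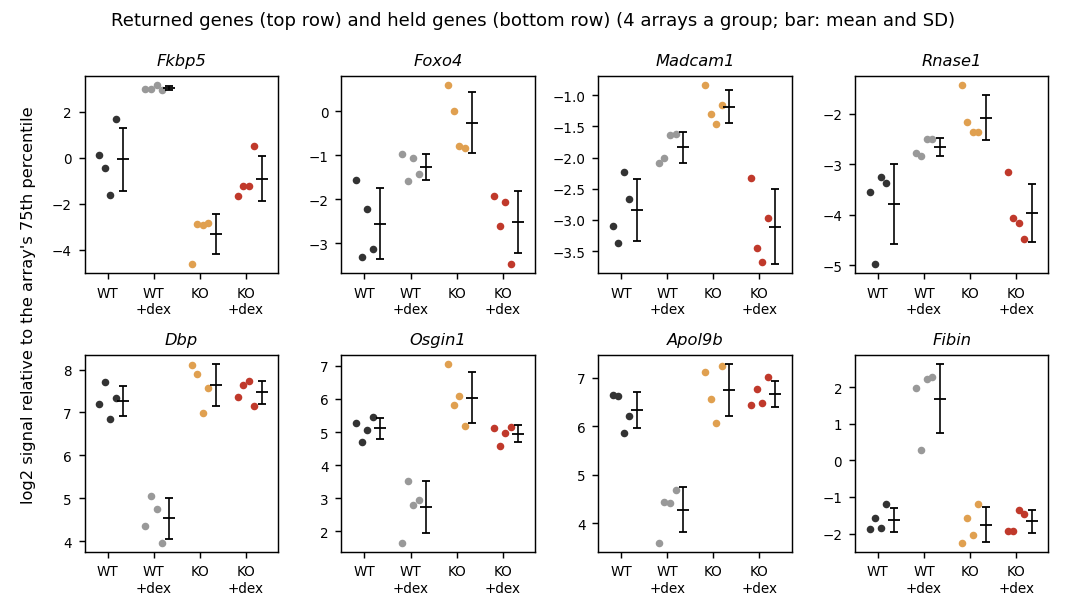
Level on each array (points; log2 relative to the array's 75th percentile) of 4 returned genes (top row) and 4 held genes (bottom row) in untreated wild type (WT), dexamethasone-treated wild type (WT +dex), untreated knockout (KO) and treated knockout (KO +dex), with group mean and SD (n = 4) beside the points. In the top row the untreated knockout is the group apart from untreated wild type and treated knockout, and in the bottom row it is the treated wild type, which for Dbp lies at 3.96 to 5.06 against 6.84 to 7.74 in the groups compared.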

How the data were processed

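Liver RNA was labelled with Cy3, 1 sample an array. Each deposited scanner file holds a processed signal per spot, an intensity after the authors' background and spatial correction. Agilent Feature Extraction 9.5 is named by the submitters' processing notes. The raw and background signals deposited beside it are also intensity values, and the spot flags per the file headers are other, coded values. The series table holds the same processed signals.

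Control spots were dropped, and 2121 outlying spots (0.306%) became missing values. Each array's log2 values were shifted so that their 75th percentile was 0. A probe stayed in (26794 did) if 3 of 4 arrays of some group were well above background, and a gene took its brightest probe. RefSeq tables (GRCm38.p6) named 23082 probes by accession and 9655 by symbol or synonym, leaving 8437 unmatched. Limma 3.58.1 (R 4.3.3) fitted 4 group means to 16 arrays (12 residual degrees of freedom), two-sided, with Benjamini-Hochberg adjustment over all genes. Data simulated for this comparison (18450 genes) had independent normal noise, with 1 spread per gene for all arrays and no outlying array. There, log2 changes of 1 and 2 were called in 59.8% and 93.0%, and true changes of 2 were never taken as held. These shares may not carry over to the real arrays, where counts moved with single arrays.

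Named genes were Nr3c1, the 12 largest rises and 12 largest falls with a symbol, signal on all 4 arrays of a compared group and no overlap, up to 4 called members of each list (or the largest differences, up to 2), the 8 strongest returned genes, and the 12 held genes that moved most in treated wild type. The text prints some of these. Other list members, such as Klf9, Tsc22d3, Tat and Ddit4, and G0s2, Gadd45a and Ccn2 were chosen after their values were seen. Members and lists were chosen with earlier results of these data known. The labels do not say that a replicate number pairs samples, so the main fit had no pairing. Of the same-numbered pairs of the compared groups, 2 of 4 correlated over 0.1 (r from -0.157 to 0.110). So few pairs cannot exclude a pairing. Alternatives were normexp (offset 50), quantile scaling, other filters, percentiles and probe rules, other variance models, the replicate block, and each array left out. Figures were drawn with matplotlib 3.10.9. Some single-gene values are not reported here.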

Additional observations from a re-analysis of the deposited data

Results flagged for a closer look

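Among 233 groups of 4 arrays of the printed genes, 16 had 1 array far from the other 3 by a test of the gap against the range, and chance gives about 1 in 20. Untreated wild-type array 4 was that array for Nr3c1 (2.13, others 2.47 to 2.52), Fabp4 (3.02, others 2.24 to 2.37), Asns (1.62, others 2.43 to 2.57), Gspt2 (-3.58, others -4.84 to -4.69), Fbp1 (8.81, others 9.07 to 9.09), Pnpla3 (-5.06, others -3.43 to -3.19) and Stab1 (2.85, others 2.19 to 2.29). Untreated wild-type array 3 stood low for Tsc22d3 (3.30, others 4.30 to 4.39) and Trpv3 (-7.32, others -6.48 to -6.37) and high for Ptges3 (3.18, others 3.04 to 3.05). In treated knockout, array 4 stood low for Gadd45a (1.92, others 2.43 to 2.51), array 2 low for Asns (0.034, others 4.44 to 5.05) and Hsp90aa1 (5.64, others 6.21 to 6.30), and array 1 high for Hmgcs1 (8.94, others 6.31 to 6.42). Untreated knockout array 1 stood low for Fkbp5 (-4.62, others -2.94 to -2.86), and treated wild-type array 2 low for Fibin (0.27, others 1.98 to 2.28).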

How the results depend on the processing

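Of 62 printed genes with a call, 18 kept it under every alternative in which they had a value. The rest lost it in at least 1, most often at an adjusted p under 0.01 (36 genes) and with normexp correction (24 genes), where Ifit2 also changed sign (0.10). A percentile over bright probes cost none of the 62 calls and quantile scaling 1. Departed genes numbered 219 with normexp correction (47.5% higher, against 68.1%), 449 with no filter on dim probes, 2716 with array weights, 1474 with only the compared groups in the fit and 150 at an adjusted p under 0.01. They ranged from 260 to 1620 without 1 array, and without untreated wild-type array 4 the share higher was 80.8%. Genes held numbered 6440 with a margin of 1.5-fold and 11738 to 15623 under the other settings, single arrays left out included. Returned genes numbered 7 with normexp correction, 71 with no filter, 401 with array weights and 65 without the treated wild-type group in the fit. They numbered 17 at an adjusted p under 0.01, and 41 to 206 without 1 array. With the replicate block, 233 returned, 869 departed and 12785 held, and 4 of the 62 calls were lost. Partly returned genes numbered 3 with array weights. The cause of these shifts was not tested. Signal over background limits the dim genes, where most rises lay.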
